A study of Mus musculus with 18 samples.

Results

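The data described here are the DNA joins made at RAG-cut coding ends in G2-arrested mouse B cells that have or lack DNA-PKcs, all of them wild type for CtIP. They comprise 2 DNA-PKcs -/- libraries and 2 wild-type libraries, chosen by the genotype, cell cycle phase and coding-join labels, and every junction listed for them was used: 6868 of the 30937 junctions in the 12 coding-join libraries analysed here. Both groups are v-abl transformed B cells, which are pro-B-like cells immortalised by the v-abl oncogene, of strain 129, and both carry a stably integrated pMX-INV recombination substrate. Per the labels' protocol for this phase, cells received 3 µM STI571, an Abl kinase inhibitor that arrests them and turns on RAG, for 24 h, and then 10 µM RO3306, a CDK1 inhibitor, for 48 h. The junctions were read by high-throughput genome-wide translocation sequencing (HTGTS), in which sonicated DNA is amplified from a primer next to one coding end, the bait, and whatever was joined to it, the prey, is sequenced. The wild-type libraries held 535 and 289 junctions and the DNA-PKcs -/- libraries 3663 and 2381. Whether the replicates are separate cultures or lines is not in the labels, so their spread, and every p below, may reflect technical variation only, and genotype cannot be told apart from the cell line that carries it.

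In V(D)J recombination the RAG nuclease cuts between a signal sequence and the adjoining coding segment, leaving a blunt signal end and a coding end sealed as a hairpin. Classical non-homologous end joining repairs these ends. The kinase DNA-PKcs, recruited by Ku, activates the nuclease Artemis, which opens the hairpins. A hairpin opened away from its tip leaves a short overhang whose copy in the join is palindromic to the coding end (P nucleotides), and terminal transferase can add further untemplated bases.

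Each signal sequence is a heptamer and a nonamer separated by a spacer. The signals beside the coding ends, read out of the sequenced joins, each occurred exactly once in the mouse Igk locus, so they are shown here from the mm10 (GRCm38) genome. The bait-side signal, with a spacer of 12 bp, equalled 28 bases at chr6:69544331-69544358 beside Igkv4-57-1, a V kappa segment on the minus strand. The partner-side signal, with a spacer of 23 bp, equalled 39 bases at chr6:70722523-70722561 just before Igkj1, the first J kappa segment. Both are printed on the plus strand with the nonamer first and the heptamer last, in capitals.
Igkv4-57-1 signal: GGTTTTTGTtccagtctgtagCACTGTG
Igkj1 signal: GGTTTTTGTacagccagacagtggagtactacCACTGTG
On the substrate, each coding end starts at the base that follows its heptamer. Deletion was counted from there, and an end with a deletion of 0 bp is called intact. A coding join was a junction of the bait coding end to the partner coding end, with up to 1000 bp lost from the partner.

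With DNA-PKcs, most junctions lay within the substrate. Without it, most junctions had telomere-repeat prey when every listed line was counted. They did not when telomere lines, and no others, were merged by sequence, as given below. Substrate prey made up 69.2% and 64.0% of junctions in the wild-type libraries and 23.2% and 23.6% in the DNA-PKcs -/- libraries, or 66.6% ± 3.64 against 23.4% ± 0.252 (SD, n = 2). Prey with at least 3 exact telomere repeat units made up 8.41% (45 of 535 junctions, 95% Wilson interval 6.35% to 11.1%) and 3.11% (9 of 289, 1.65% to 5.81%) in wild type. The same share was 67.6% (2477 junctions) and 58.1% (1383 junctions) without DNA-PKcs, 10.9 times the wild-type mean. That ratio was 20.2 without the first wild-type library and 7.47 without the second. The groups did not overlap for either share.

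**Figure D1:**
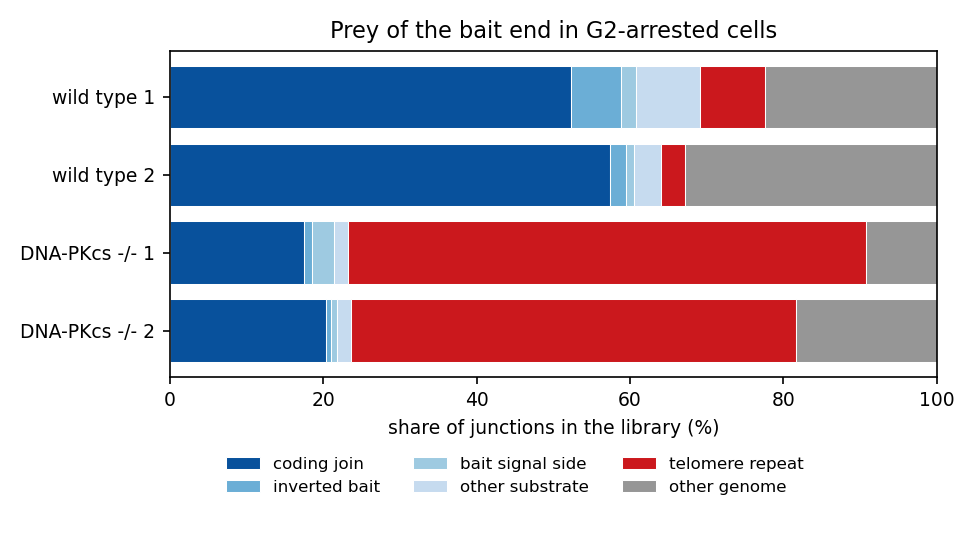
Share of all junctions in each library (%, horizontal axis) by the place of the prey, for the 4 libraries (vertical axis). Blue shades are prey on the substrate, red is telomere repeat and grey is other genome. Telomere repeat fills 67.6% and 58.1% of the bars of the DNA-PKcs -/- libraries and 8.41% and 3.11% of the wild-type bars.

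Telomere lines were also counted by event. Collapsing lines identical in prey position, prey strand and bait base to 1 left the difference at 55.3 percentage points, against 57.1 over all lines. Since the repeat is the same at every chromosome end, the listed position of telomere prey may not tell separate joins from copies of 1 join. A stricter count joins lines by sequence, and since the repeat has a period of 6 bases it can also merge separate joins made at 1 bait end. Counting lines that shared the bait end and the next 12 bases once left 21 and 8 telomere joins in wild type and 599 and 341 without DNA-PKcs. Only telomere lines were merged in this way, while all substrate and other genome lines stayed in the totals of 511, 288, 1785 and 1339. Of these totals the telomere joins were 4.11% and 2.78% in wild type and 33.6% and 25.5% without DNA-PKcs. The groups still did not overlap, with a smaller gap. Telomere joins were then a minority in both DNA-PKcs -/- libraries, in a count that merged no other lines. Within each sequencing run, which holds 1 library of each genotype, the telomere share over all lines was 59.2 and 55.0 percentage points higher without DNA-PKcs.

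The remaining genome prey took 22.4% and 32.9% of wild-type junctions and 9.17% and 18.4% of DNA-PKcs -/- junctions. Among junctions without telomere repeat, the order differed: genome prey were then 24.5% and 33.9% in wild type and 28.3% and 43.8% without DNA-PKcs, with substrate prey as the remainder, and the groups overlapped. Within the substrate prey, coding joins were 75.7% and 89.7% in wild type and 75.5% and 86.1% without DNA-PKcs, again overlapping. Prey on the signal side of the bait were 2.70% and 1.62% of substrate junctions in wild type and 12.4% and 3.57% without DNA-PKcs. The first DNA-PKcs -/- library held 105 such junctions and the second 20, and the difference of 5.80 percentage points was 1.40 without the first and 10.2 without the second.

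Of the 21 measures compared between the groups, 17 had no overlap between the wild-type and the DNA-PKcs -/- libraries (81% of those compared, 11 higher and 6 lower without DNA-PKcs). With 2 libraries against 2 an exact two-sided permutation test cannot give a p below 0.333, and each of these 17 stood at that value, so none passes a threshold of 0.05. After Benjamini-Hochberg adjustment over the 21 the smallest value was 0.412.

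Coding joins lost more sequence from both ends without DNA-PKcs. There were 280 and 166 such joins in wild type and 642 and 483 without DNA-PKcs. The median deletion at the partner end was 3 and 2 bp in wild type and 16 bp in both DNA-PKcs -/- libraries. At the bait end it was 3 bp in both wild-type libraries and 29 and 19 bp without DNA-PKcs. For both ends added, the median loss was 9 and 8 bp against 50 and 38 bp.

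The share of coding joins that lost over 20 bp showed the same order. At the partner end it was 5.0% and 9.04% in wild type and 42.7% and 38.1% without DNA-PKcs, or 7.02% ± 2.85 against 40.4% ± 3.24 (SD, n = 2). At the bait end it was 5.36% and 10.2% against 58.7% and 47.2%, or 7.80% ± 3.45 against 53.0% ± 8.14. The DNA-PKcs -/- libraries differed from each other more at the bait end: the upper quartile of bait deletion was 66 bp in the first and 34 bp in the second, while that of partner deletion was 37 and 32 bp. With a threshold of 50 bp the difference in share was 8.96 percentage points at the partner end and 19.8 at the bait end, against 33.4 and 45.2 at 20 bp.

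**Figure D2:**
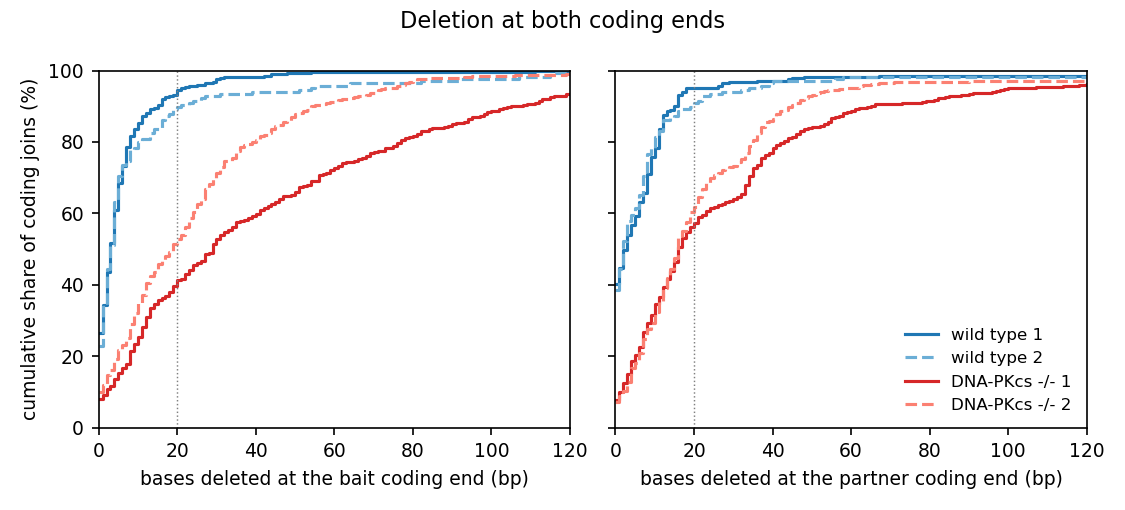
Cumulative share of coding joins (%, vertical axis) against bases deleted (bp, horizontal axis) at the bait coding end (left) and the partner coding end (right), 1 line per library, with the dotted line at 20 bp. The wild-type lines have medians of 3 and 3 bp (bait) and 3 and 2 bp (partner), while the DNA-PKcs -/- lines reach medians of 29 and 19 bp (bait) and 16 and 16 bp (partner).

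Long loss at one end was not limited to joins with long loss at the other. Among joins that kept all but 20 bp or fewer of the partner end, the bait end had lost over 20 bp in 4.51% and 3.97% in wild type and in 39.9% and 38.5% without DNA-PKcs. Where the partner end had lost over 20 bp, the same share was 21.4% (3 of 14 joins) and 73.3% (11 of 15) in wild type and 83.9% (230 of 274) and 61.4% (113 of 184) without DNA-PKcs, and the groups overlapped. These conditional shares were added after the data had been seen. Partner losses of over 200 bp were rare in every library, at 1.43% and 1.20% against 1.71% and 2.48%, from 4 and 2 against 11 and 12 joins. The difference of 0.782 percentage points there was 0.397 without the second DNA-PKcs -/- library.

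Intact coding ends were the most common single outcome in wild type and became less common without DNA-PKcs. The partner end was intact in 40.4% and 38.6% of wild-type coding joins and in 7.79% and 7.25% of DNA-PKcs -/- joins. The bait end was intact in 26.4% and 22.9% against 7.94% and 10.1%. Both ends were intact in 26 and 15 wild-type joins (9.29% and 9.04%) and in 6 and 5 DNA-PKcs -/- joins (0.935% and 1.04%).

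Positions were ranked by their mean share over the 4 libraries. Apart from the intact end, the highest-ranking partner positions were deletions of 2, 8, 7 and 3 bp. The position at 7 bp was the exception among them, taken by 2.5% and 5.42% of wild-type joins and by 4.21% and 3.93% without DNA-PKcs, so the groups overlapped there. At 2 bp the shares were 5.0% and 7.83% against 2.49% and 1.45%. At the bait end the highest-ranking positions after the intact end were deletions of 4, 2, 1 and 5 bp. Each was taken by 7.23% to 12% of wild-type joins and by 1.25% to 3.11% of DNA-PKcs -/- joins. Ranking by the mean of both groups favours positions that are high in 1 group. The direction at these positions is therefore not a separate result, and they need not be the most used without DNA-PKcs. Joins that differed in either deletion or in the length of homology or insertion made up 91.1% and 94.0% of wild-type coding joins and 98.6% and 97.9% without DNA-PKcs, so few joins were repeats.

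Classes of deletion, homology and insertion were then fitted together with limma on log2(percent of coding joins + 0.5). Of 86 classes, 41 reached a mean share of 1% and were tested, and 33 differed at an adjusted p under 0.05 (80.5%), 20 higher (48.8%) and 13 lower (31.7%) without DNA-PKcs. The classes describe the same joins in 3 ways, so they are not independent, and within each way the shares sum to a whole. The mean was taken over both groups, so a class rare in 1 group was tested only because of its share in the other. Bait deletions of 56 to 60 and 76 to 80 bp, for example, were at 0% in both wild-type libraries. The direction of such classes follows from the filter. Without the filter 33 of 83 classes were called, 22 higher and 11 lower, and 29 of them were also called with it. Of the 14 bait classes tested 9 rose and 2 fell, and of the 13 partner classes 6 rose and 3 fell. The intact partner end fell by 2.32 on the log2 scale (SE 0.15, limma adjusted p = 1.03e-08). Partner deletions of 31 to 35 bp rose from 0% and 1.20% to 8.41% and 7.25% (log2 difference 3.17, SE 0.61, limma adjusted p = 0.000813). Without either DNA-PKcs -/- library the count of classes called was 10 (without the first) or 9 (without the second).

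The way the ends were joined also differed. In wild type, inserted bases separated the ends in 74.6% (95% Wilson interval 69.2% to 79.4%) and 74.7% (67.6% to 80.7%) of coding joins. Without DNA-PKcs insertions were found in 24.0% (20.8% to 27.4%) and 19% (15.8% to 22.8%), or 21.5% ± 3.49 against 74.7% ± 0.0396 (SD, n = 2). Direct joins, with no inserted and no shared base, took 13.2% and 15.1% in wild type and 38.3% and 37.5% without DNA-PKcs. Among joins without an insertion alone the order turned, with direct joins at 52.1% (37 of 71) and 59.5% (25 of 42) in wild type and 50.4% (246 of 488) and 46.3% (181 of 391) without DNA-PKcs.

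Microhomology, 1 or more bases that could come from either end, was present in 12.1% and 10.2% of wild-type joins and in 37.7% and 43.5% without DNA-PKcs. Most of it was short. A single shared base accounted for 7.5% and 7.83% of wild-type joins and 22.0% and 24.6% of DNA-PKcs -/- joins. Shared runs of 4 bp or more were 0.714% and 1.20% in wild type (2 joins in each library) and 2.80% and 4.35% without DNA-PKcs (18 and 21 joins), a difference of 2.62 percentage points that turned to -1.20 with alignments not trimmed at the heptamers. In the limma fit the direct class rose, all 4 homology classes rose and 8 of the 9 insertion classes tested fell, with none rising.

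**Figure D3:**
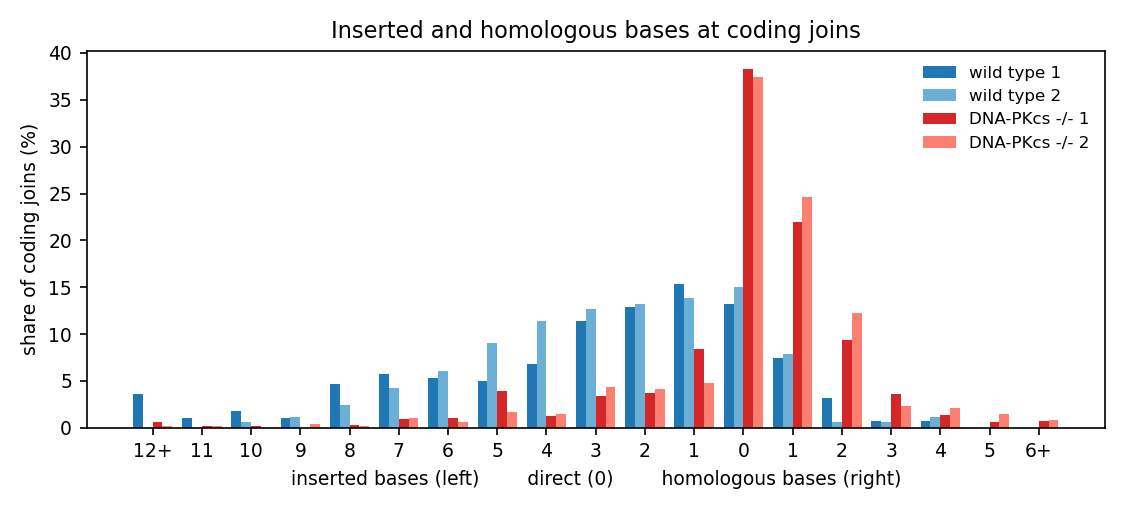
Share of coding joins (%, vertical axis) by the number of inserted bases (left of 0), direct joins (0) and homologous bases (right of 0) on the horizontal axis, 1 bar per library. Direct joins stand at 38.3% and 37.5% in the DNA-PKcs -/- libraries and at 13.2% and 15.1% in wild type, while the bars left of 0 are mostly wild type.

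Direct joins and joins with microhomology had lost more sequence than joins with an insertion in both DNA-PKcs -/- libraries. Without DNA-PKcs the median total deletion was 17 and 26 bp in joins with an insertion, 52 and 31 bp in direct joins and 73 and 49 bp in joins with microhomology. In wild type it was 8 and 7.5 bp, 9 and 4 bp, and 13.5 and 22 bp, from 34 and 17 joins in the last class. Joins with microhomology lost the most in all 4 libraries.

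Insertions had a mean length of 3.23 and 3.28 bases without DNA-PKcs and 4.40 and 3.63 bases in wild type. This difference of -0.755 bases was -0.371 without the first wild-type library and -1.14 without the second, and it was -0.203, with overlapping groups, for alignments not trimmed at the heptamers. Insertions of over 5 bases were found in 23.2% and 14.5% of wild-type coding joins and in 3.27% and 2.69% of DNA-PKcs -/- joins. The share of G and C among inserted bases was 66.5% and 64.0% in wild type and 64.7% and 61.3% without DNA-PKcs, which overlap.

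The sequence of the insertions differed at intact ends. A palindrome of 5 bases from the partner end is read in the insertion as GGCTG, ending at the partner base, and one of 5 bases from the bait end as CAGAC, starting at the bait base; shorter palindromes are the ends of the first and the starts of the second. The heptamer ends in TG, as does the partner palindrome, and read from the bait it starts with CA, as does the bait palindrome. By sequence, the shortest palindromes thus cannot be told apart from heptamer bases. In wild type the palindromes were mostly 1 to 3 bases long. Without DNA-PKcs, they reached 8 bases or more.

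At intact partner ends with an insertion, 3 or more palindromic bases were present in 19.4% (20 of 103 joins, 95% Wilson interval 12.9% to 28.1%) and 18.2% (10 of 55, 10.2% to 30.3%) in wild type. Without DNA-PKcs the share was 57.1% (24 of 42, 42.2% to 70.9%) and 65.0% (13 of 20, 43.3% to 81.9%). At intact bait ends it was 15% (9 of 60) and 11.5% (3 of 26) against 45.2% (14 of 31) and 38.9% (7 of 18). The groups did not overlap at either end.

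Longer palindromes were rarer in all libraries. At intact partner ends, palindromes of 4 or more bases were found in 2 of 103 and 1 of 55 wild-type joins and in 14 of 42 and 7 of 20 DNA-PKcs -/- joins. Palindromes of 5 or more bases at the partner end were in 0 wild-type joins and in 10 and 7 DNA-PKcs -/- joins. At intact bait ends, 4 or more bases were found in 4 and 1 wild-type joins and in 8 and 3 DNA-PKcs -/- joins. There, 5 or more were in 2 and 0 against 7 and 1. The same match to a coding end cut back by 1 to 20 bp measures how often such bases arise without an intact end. For 3 or more bases, over both ends together, that background was 0.844% and 0% in wild type and 0.581% and 0% without DNA-PKcs, against 17.8% and 16.0%, and 52.1% and 52.6%, at intact ends. For 1 or more bases the mean background was higher. In wild type it was 19.3% (partner) and 27.1% (bait), against 83.6% and 57.5% at intact ends. Without DNA-PKcs it was 30.2% and 20.7%, against 91.5% and 72.8%. The palindrome measures were chosen after the data had been seen, as were those of intact ends, total deletion, subclasses of substrate prey, telomere joins other than bait deletion over 20 bp, and the longer microhomology and bait deletions of genome joins.

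**Figure D4:**
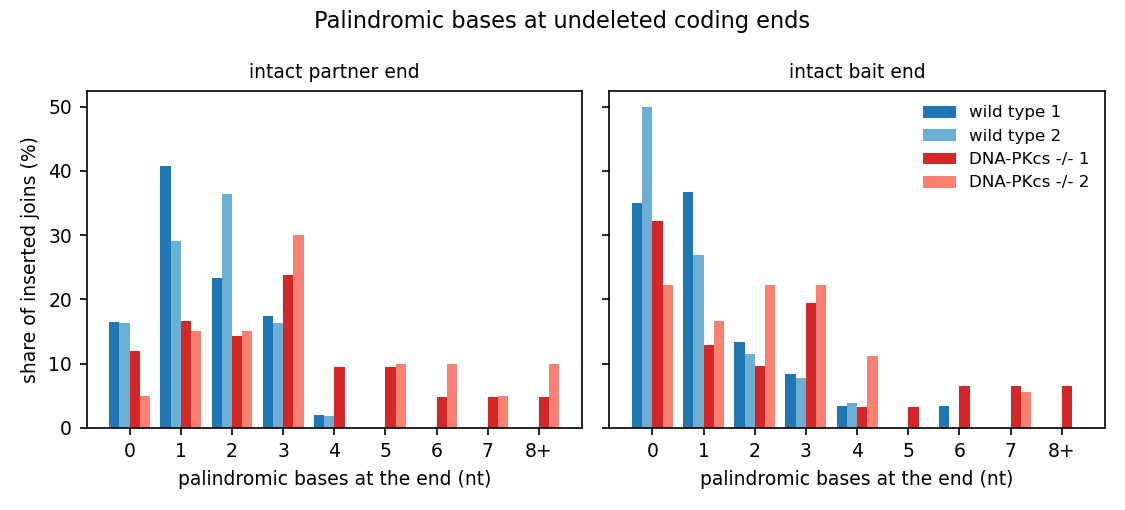
Share of inserted coding joins with an intact end (%, vertical axis) by the number of palindromic bases at that end (nt, horizontal axis, 8+ for 8 or more), for the partner end (left, 103, 55, 42 and 20 joins) and the bait end (right, 60, 26, 31 and 18 joins), 1 bar per library. Bars for 5 or more bases at the partner end belong to the DNA-PKcs -/- libraries.

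The share is of few joins without DNA-PKcs, because intact ends with insertions were themselves rarer. Bases in insertions that no palindrome of an intact end accounts for were present in 63.6% and 66.9% of wild-type coding joins and in 19.5% and 13.5% of DNA-PKcs -/- joins. Where an insertion adjoined an intact end, palindromes accounted for all of it in 22.1% and 18.1% of wild-type joins and in 42.0% and 73.0% of DNA-PKcs -/- joins.

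Joins to telomere repeats held the C-rich strand order away from the bait in all 45 and 9 wild-type lines and in 99.7% and 99.8% of DNA-PKcs -/- lines. The bait end had lost a median of 49 and 16 bp in these joins without DNA-PKcs, against 110 and 53 bp in wild type. The wild-type values rest on 45 and 9 lines, and the first of them on 10 distinct bait ends. In the second DNA-PKcs -/- library the bait end was intact in 173 of 1383 telomere joins, and in the first in 20 of 2477. Direct joins to telomere repeats were 11.1% and 22.2% of telomere lines in wild type and 31.7% and 38.8% without DNA-PKcs. Apart from the collapsing of identical lines, the positions of telomere prey were not used, since the repeat is the same at every chromosome end.

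**Figure D5:**
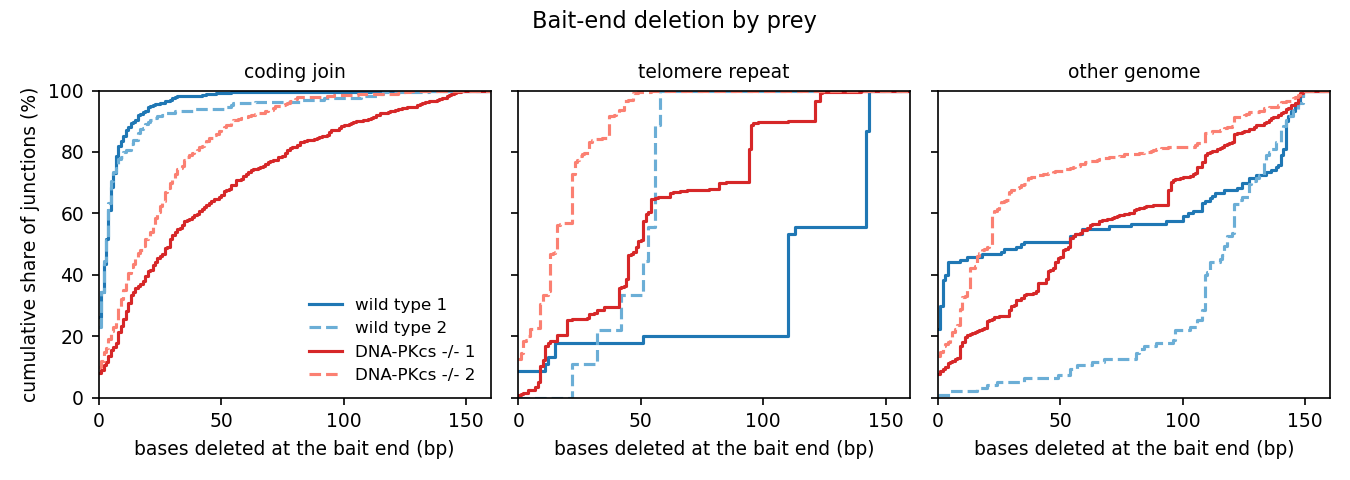
Cumulative share of junctions (%, vertical axis) against bases deleted at the bait end (bp, horizontal axis), for coding joins (left), telomere-repeat joins (middle) and other genome joins (right), 1 line per library. The groups separate for coding joins, while for other genome joins the medians were 34.5 and 118 bp in wild type and 54 and 22 bp without DNA-PKcs and the lines cross.

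Joins elsewhere in the genome showed no overlap between groups for insertions, direct joins, longer microhomology and the longest bait deletions, and overlap for other measures. There were 120 and 95 such joins in wild type and 336 and 437 without DNA-PKcs. Joins with an insertion were 39.2% and 47.4% against 36% and 37.3%, direct joins 9.17% and 11.6% against 15.8% and 24.3%, and joins with microhomology 51.7% and 41.1% against 48.2% and 38.4%, the last of which overlap. Leaving out the second wild-type library moved the insertion difference from -6.61 to -2.51 points and leaving out the first to -10.7, and without the second DNA-PKcs -/- library the direct difference was 5.40 against 9.64. Microhomology of 4 bp or more was 34.2% and 21.1% in wild type and 14.6% and 11% without DNA-PKcs, a difference of -14.8 percentage points, or -8.27 without the first wild-type library. Bait deletions of over 100 bp were 40.8% and 77.9% against 28.3% and 18.3%, and in CtIP A/A cells they averaged 61.7% with and 18.9% without DNA-PKcs. Some megabase bins held 10 or more joins of 1 library, as described below. With those bins and the antigen receptor loci left out, insertions overlapped, at 41% and 46.7% in wild type and 42.5% and 43.5% without DNA-PKcs. Microhomology then did not overlap, at 52% and 41.3% against 38.8% and 26.9%. The longer microhomology was also counted near the bait end, in those remaining joins that were merged read pairs (described below) with bait deletions of up to 20 bp. There, 4 bp or more was shared in 5.56% of 36 and 0% of 3 wild-type joins. Without DNA-PKcs it was shared in 0% of 41 and 4.17% of 120, so the groups overlapped.

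The second wild-type library stood apart here. In 53.7% of its genome joins the file gave no length for the read, taken here to mark read pairs that had not been merged, against 9.17%, 11.9% and 10.3% in the other 3. Without such lines, in a setting chosen after the data had been seen, the insertion share of genome joins was 34.9% and 11.4% in wild type and 31.8% and 33.4% without DNA-PKcs, so its difference changed sign. The microhomology share of genome joins was then 55.0% and 75% in wild type and 53.7% and 41.6% without DNA-PKcs, with no overlap. The share of such lines among all junctions was 5.23% and 20.8% in wild type and 13.0% and 2.02% without DNA-PKcs, and its part in the other results was measured by leaving those lines out. The coding-join differences were then nearly as large (the difference in insertion share was -53.3 percentage points, against -53.2 with all lines).

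Of the 6 antigen receptor loci, Igk, which encodes the kappa light chain, held the most genome joins, with 5 and 2 in wild type and 18 and 20 without DNA-PKcs. Igh held 7 and 0 against 1 and 4, Igl 1 and 0 against 0 and 0, and Tcrg 0 and 0 against 4 and 0. These counts come from 120 and 95 genome joins in wild type and 336 and 437 without DNA-PKcs, so they are not comparable as such. Tcra/Tcrd and Tcrb had 0 in all 4 libraries, as had Myc, Pvt1, Notch1, Pax5, Ccnd1, Ccnd2, Bcl6 and Mycn, genes often rearranged in lymphoid tumours. The antigen receptor loci together took 10.8% and 2.11% of genome joins in wild type and 6.85% and 5.49% without DNA-PKcs, which overlap.

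J kappa segments, endogenous targets of RAG, were joined to the bait in 5 wild-type and 2 DNA-PKcs -/- cases. In the first wild-type library, coding-side joins lay 3 bp into Igkj1 with an insertion of 2 bases (AA), and at the first base of Igkj4 with no insertion, while 3 more joins lay on the signal side of Igkj2 and Igkj4. In the second DNA-PKcs -/- library they lay 28 bp into Igkj1 and 11 bp into Igkj2, with no insertion. The segments joined on the coding side in wild type, Igkj1 and Igkj4, are shown with their signal, from mm10 (GRCm38), plus strand, at chr6:70722522-70722581 and chr6:70723508-70723567, with nonamer and heptamer in capitals and the coding segment following the heptamer.
Igkj1: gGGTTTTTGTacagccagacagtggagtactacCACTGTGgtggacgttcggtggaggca
Igkj4: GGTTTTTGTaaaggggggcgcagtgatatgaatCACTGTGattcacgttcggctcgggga

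Genome joins without telomere repeat fell in 463 megabase bins, of which 75 were seen in at least 2 of the 4 libraries, 39 in both DNA-PKcs -/- libraries and neither wild-type library, and 2 in both wild-type libraries and neither DNA-PKcs -/- library. The libraries without DNA-PKcs held more genome joins, so these counts are not comparable as such. The highest-ranking bin, on chromosome 2 at 167 Mb, held 98 joins of the first DNA-PKcs -/- library (29.2% of its genome joins), 6 of the first wild-type library and 0 of both second libraries. The bin on chromosome 7 at 101 Mb held 56 joins of the second DNA-PKcs -/- library, 52 of them in Fchsd2, and 1 of the first wild-type library. A further 2 bins were filled by the second DNA-PKcs -/- library alone, with 50 joins on chromosome 4 at 133 Mb (36 in Pigv, a mannosyltransferase gene of GPI anchor synthesis) and 24 on chromosome 5 at 140 Mb (23 in Mad1l1, which encodes a spindle checkpoint protein). Each bin's joins thus came mostly from 1 library, and such clusters cannot be assigned to genotype. The libraries with joins in the chromosome 2 bin shared a sequencing run, and those without were both of the other run. Joins in the chromosome 7 bin came from both runs. A link to the run was not tested.

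Within these 4 clusters the prey strand followed position. Around the dividing position that gave the most such joins, chosen after the data had been seen, minus-strand prey below it and plus-strand prey above it made up 92 of 98 joins on chromosome 2, 51 of 56 on chromosome 7, 49 of 50 on chromosome 4 and 23 of 24 on chromosome 5. Of the other bins named by share, chromosome 11 at 98 Mb held 6 joins of the second wild-type library, 4 of them in Rara, the retinoic acid receptor alpha gene. The bins on chromosome X at 137 Mb (13 joins at 1 position) and chromosome 6 at 53 Mb (13 joins) had prey with telomere-like repeats that fell short of 3 exact units, and the 6 joins on chromosome 1 at 171 Mb were all of unmerged pairs. The bins on chromosome 6 at 68, 69 and 70 Mb lie in or reach into Igk, and the bin on chromosome 3 at 95 Mb held 4 joins.

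Long homology near the bait end was looked for in genome joins with a bait deletion of up to 20 bp, leaving out unmerged pairs and prey with 2 telomere repeat units. There were 56 and 3 such joins in wild type and 64 and 127 without DNA-PKcs. Homology of 8 bp or more was seen in 5 of them, all in the second DNA-PKcs -/- library. The list of sequences also left out some prey by chromosome and repeats of a position, so joins not shown need not have mismatched the reference. The genome sequence is shown for 3 of these joins, in which the shared bases matched the reference exactly, with the shared bases in capitals: 11 bp at chr2:83712546-83712586 (plus strand, intergenic), 9 bp at chr7:101228411-101228449 (minus strand, an intron of Fchsd2) and 8 bp at chr17:70794515-70794552 (plus strand, an intron of Dlgap1). They were chosen after the data had been seen.
chromosome 2 site: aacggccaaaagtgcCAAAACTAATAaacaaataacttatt
Fchsd2 site: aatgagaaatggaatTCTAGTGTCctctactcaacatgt
Dlgap1 site: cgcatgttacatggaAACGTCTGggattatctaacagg

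The DNA-PKcs difference was also set beside that in CtIP A/A cells, which carry a CtIP allele of that name, in the same phase. There, partner deletion over 20 bp was 8.31% with and 35.1% without DNA-PKcs (means of 2 libraries), bait deletion over 20 bp 10.8% and 42.2%, the insertion share 73.9% and 30.2%, and the telomere share 6.92% and 57.5%. The 2 CtIP A/A libraries without DNA-PKcs lay far apart in telomere share, at 76.7% and 38.4%. Exact permutation of the CtIP labels within DNA-PKcs status (36 arrangements, two-sided) cannot give a p below 0.0556, so no measure could pass 0.05 in it. Of the 21 measures 1 stood at that value, the median bait deletion, where the difference was 21 bp in CtIP wild-type cells and 12.8 bp in CtIP A/A cells. After Benjamini-Hochberg adjustment of these permutation tests over the 21 measures, the smallest value was 0.667. In G1-arrested cells of the same genotypes, with 1 library each and so no test, the insertion share was 74.5% with and 26.0% without DNA-PKcs, bait deletion over 20 bp 18.4% and 64.5%, and the telomere share 2.44% and 52.2%.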

How the data were processed

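HTGTS coding-join libraries were compared per library, each counting once. Reads were aligned with Bowtie2 to mm10 plus the substrate, per the submitters' processing notes and the labels' protocols; the caller, versions and treatment of duplicates are not given in the sources used here. In the deposited tables each line is a junction, with its positions, strands and read (per the file headers), and nothing was normalized. Here alignments were trimmed at the heptamer borders, which were set from the reads; overlap is homology and gap insertion. Over 4895 genome junctions, 99.1% of matching bases equalled GRCm38. Genes are GENCODE M21. Exact permutation tests used Python 3.11.15 and scipy 1.17.1, and classes limma 3.58.1 in R 4.3.3, tested on simulated data. Intervals cover counting error only. The members, lists and measures were chosen with earlier results of these data known. Named: antigen receptor and partner loci, the 10 megabase bins and 5 positions per end with the highest mean share. I-PpoI samples were not analysed here. A count of 0 allows up to 0.0819% to 1.04% of a library's junctions.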

Additional observations from a re-analysis of the deposited data

How the results depend on the processing

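With 2 libraries a group, the permutation test could not pass 0.05 for any measure, and the values below are differences, DNA-PKcs -/- minus wild type, in percentage points or bp. Of 282 alternative values of the measures, leaving out the block, 268 kept their direction, of which 40 moved by over 1.5 times, and 14 changed sign. Leaving out 1 library in turn gave -45.8 to -40.6 for the substrate share, 52.3 to 61.9 for telomere repeats, 31.1 to 35.7 for partner and 39.4 to 50.9 for bait deletion over 20 bp, and -55.6 to -50.7 for insertions. The antigen receptor share (-0.301) ranged from -4.66 to 4.06, microhomology of genome joins (-3.03) from -8.34 to 2.28, their bait deletion over 20 bp (-11.7) from -32.9 to 9.57, and bait loss where the partner lost over 20 bp (25.3) from -0.656 to 51.2. The antigen receptor share was also 0.0620 with identical junctions once and 0.140 as log odds. Genome microhomology was 1.92 with uncut or short prey left out, genome insertions 9.47 (main -6.61) without unmerged pairs, the other genome share 6.85 (main -13.9) without telomere lines, direct joins -7.47 (main 23.8) among joins without insertion, and microhomology of 4 bp or more -1.20 (main 2.62) with untrimmed alignments. The cause was not tested. The classes called (33) numbered 9 to 34 over the left-out libraries. The replicate numbers share only a number and a sequencing run. With the replicate block 25 classes were called, and same-numbered deviations correlated at -0.0251 over 41 classes. In this balanced layout the block cannot move a difference of means (57.1 for telomere repeats), and its smallest p is 0.5.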
